A study of Mus musculus with 6 samples.

Results

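The F-box protein genes were taken as the entries of the deposited gene table whose symbol is Fbxl, Fbxo or Fbxw followed by a number, apart from the atrophy-linked ligase genes *Fbxo32*, *Fbxo30*, *Fbxo40* and *Fbxo21*. This gave 73 of the 37979 entries, with 72 gene symbols, of which 18 belong to the Fbxl branch, 34 to the Fbxo branch and 21 to the Fbxw branch. Hindlimb gastrocnemius (GAS) muscles of young male mice, aged 20 weeks, were profiled by RNA-seq in 3 wildtype (WT) and 3 Kvβ2 knockout (KO) animals, each as its own library. The KO mice carried a constitutive null allele of *Kcnab2*, the gene of the Kvβ2 subunit of voltage-gated potassium channels, in every cell and not only in muscle. WT and KO mice were age-matched and came from interbred Kvβ2+/- mice, and neither group was treated. The libraries bore the numbers 1, 7 and 8 in each genotype.

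F-box proteins are the substrate receptors of SCF ubiquitin ligases. In these complexes the F-box motif binds SKP1, which links it to the scaffold CUL1 and the RING protein RBX1, and the rest of the F-box protein holds the substrate to which ubiquitin is attached. The branches are named after that substrate-binding part, with leucine-rich repeats in Fbxl proteins, WD40 repeats in Fbxw proteins and other domains in Fbxo proteins, and skeletal muscle is best known in this family for the ligase atrogin-1, the product of *Fbxo32*.

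Differences between the genotypes ran in both directions across the family. Of the 41 members that could be tested, 0 passed the test over all genes, which only 0.324% of the 12334 tested genes passed. *Fbxo31*, at 1.46-fold of its WT level, and *Fbxw8*, at 1.49-fold, were higher in KO mice. In both, each KO library exceeded each WT library, as in 18.3% of all tested genes. *Fbxo8*, at 0.696-fold, and *Fbxl17*, at 0.729-fold, were lower in each KO library than in each WT library, as were 16.2% of all tested genes. After correction for the GC content of transcripts, which the changes of all genes followed (rho = 0.70), the log2 fold changes of these 4 went from 0.54 to -0.05, from 0.58 to 0.06, from -0.52 to -0.18 and from -0.46 to -0.22. Most members that were higher in KO muscle had transcripts rich in G and C, and most that were lower had transcripts poor in them. To show what this contrast in base composition looks like, a stretch of the coding sequence of 4 members is printed here, each 120 bases long and chosen as the stretch nearest in GC content to the whole coding sequence of the longest coding transcript. The bases G and C are in capitals, the sequences run 5′ to 3′ in the sense of the mRNA, and they were read from the GENCODE vM21 transcripts of GRCm38.
Fbxo31 coding bases 211 to 330: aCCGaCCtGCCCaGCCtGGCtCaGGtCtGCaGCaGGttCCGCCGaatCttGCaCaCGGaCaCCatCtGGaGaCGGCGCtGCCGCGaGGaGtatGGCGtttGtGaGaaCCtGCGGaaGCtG
Fbxw5 coding bases 52 to 171: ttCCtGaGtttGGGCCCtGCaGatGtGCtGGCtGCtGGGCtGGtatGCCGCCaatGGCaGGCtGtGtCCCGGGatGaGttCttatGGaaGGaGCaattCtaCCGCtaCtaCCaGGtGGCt
Fbxo8 coding bases 151 to 270: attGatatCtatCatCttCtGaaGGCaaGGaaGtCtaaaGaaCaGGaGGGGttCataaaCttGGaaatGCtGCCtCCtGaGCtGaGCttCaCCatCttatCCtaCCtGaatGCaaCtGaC
Fbxl17 coding bases 886 to 1005: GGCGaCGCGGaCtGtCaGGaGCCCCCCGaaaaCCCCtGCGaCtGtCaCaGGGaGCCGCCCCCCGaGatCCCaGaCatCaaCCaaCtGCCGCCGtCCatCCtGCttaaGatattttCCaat

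The stretches of *Fbxo31* and *Fbxw5* held 76 and 69 G or C bases and that of *Fbxo8* held 52. *Fbxl17* was the exception among these 4, with 73. Its coding sequence had 61.5% GC and the rest of that transcript 39.7%, and the pooled bases of all its annotated transcripts had 44.7%. The same pooled shares were 59.1% for *Fbxo31*, 57.2% for *Fbxw5* and 40.9% for *Fbxo8*.

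The GC content of the promoters did not run with the differences in this way, with a Spearman's rho of -0.02 over 30 members. These were the members with a promoter entry, with the first window of each, while the rho for transcripts given below covers 40. *Fbxl6*, *Fbxw8* and *Fbxo45* were among those without an entry, so the values rest on unlike sets. It was 69.7% for *Fbxo31* and 57.3% for *Fbxw5*, both higher in KO muscle, and 45.7% for *Fbxo8* and 61.0% for *Fbxl17*, both lower. The promoters of *Fbxo31* and *Fbxo8*, the members of smallest p in each direction among those with a promoter entry, are shown from 250 bases before to 50 bases after the start of the gene, as RefSeq gives it on GRCm38.p6, 5′ to 3′ in the direction of transcription, which is the minus strand for *Fbxo31* and the plus strand for *Fbxo8*. Capitals mark the GC box GGGCGG in the first and the ETS motif CCGGAAG, here on the opposite strand, in the second.
Fbxo31 chr8:121578757-121579056: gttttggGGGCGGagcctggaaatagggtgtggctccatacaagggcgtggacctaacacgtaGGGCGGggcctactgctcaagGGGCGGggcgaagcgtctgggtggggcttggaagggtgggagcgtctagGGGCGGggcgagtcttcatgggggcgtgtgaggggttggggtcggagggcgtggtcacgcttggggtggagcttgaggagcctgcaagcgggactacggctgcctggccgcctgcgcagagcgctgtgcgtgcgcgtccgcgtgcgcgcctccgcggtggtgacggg
Fbxo8 chr8:56550904-56551203: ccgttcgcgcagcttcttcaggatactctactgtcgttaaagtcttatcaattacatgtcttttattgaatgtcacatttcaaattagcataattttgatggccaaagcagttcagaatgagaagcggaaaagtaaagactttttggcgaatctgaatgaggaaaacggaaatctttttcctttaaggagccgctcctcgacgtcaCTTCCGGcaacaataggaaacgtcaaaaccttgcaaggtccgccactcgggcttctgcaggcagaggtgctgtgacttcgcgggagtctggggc

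The *Fbxo31* promoter had 29 CpG dinucleotides and 4 GC boxes, and the *Fbxo8* promoter had 16 and 1 ETS motif. Of the other 2 promoters read, that of *Fbxl17* held 2 CCAAT boxes and that of *Fbxw5* held none of the motifs searched. Of the 41 promoter windows found for 30 of the tested members, 26 held a GC box, 10 a CCAAT box (CCAAT), 8 the ETS motif, 5 the E-box CACGTG and 1 the TATA box TATAAA, searched on both strands. Among all 32851 promoters of the table the shares with these motifs were 35.7%, 37.4%, 8.86%, 7.15% and 13.6%. These were not limited to tested genes, as the members were, so the shares are not like for like. These matches describe the letters in the windows and were not tied to binding of any factor.

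The values are FPKM, the fragments of a gene scaled to its transcript length and to the mapped fragments of the library, so levels can be compared between genes. Log2 fold changes are KO minus WT on log2(FPKM + 0.1), a scale that understates changes of low genes. Depth was estimated from the steps of low FPKM values at 15090000 to 19150000 fragments in the KO and 20360000 to 21480000 in the WT libraries, and 1 fragment on 1 kilobase is then worth 0.0466 to 0.0663 FPKM. The targeted gene *Kcnab2* measured 0.233, 0.10001 and 0.110 FPKM in the WT libraries. In the KO libraries it measured 0.0151 FPKM in replicate 7, while replicates 1 and 8 had a listed 0. All 9 muscle fiber markers were above 0 in each library, with a summed level of 58862 to 68058 FPKM in KO and 43023 to 62424 FPKM in WT muscle. Of these, *Ckm*, *Acta1* and *Myh2* were higher in each KO library than in each WT library, and the others overlapped. The summed level of 4 adipocyte markers was 16.5 to 78.5 FPKM in KO and 3.43 to 17.0 FPKM in WT. That of the 2 blood markers found was 59.3 to 121 against 30.5 to 47.4 FPKM with no overlap. This sum was mostly *Hba-a1* (56.1 to 117 against 27.4 to 43.5 FPKM), while *Alas2* overlapped (3.16 to 4.50 against 3.15 to 3.86 FPKM). The sum of the 3 macrophage markers found was 5.79 to 11.5 against 2.49 to 8.19 FPKM. The sums of 4 markers each overlapped between the genotypes for endothelium (32.7 to 43.0 FPKM in KO, 34.8 to 37.0 in WT), for Schwann cells (14.0 to 86.3 against 12.4 to 61.8) and for fibroblasts and tendon (360 to 496 against 359 to 548). The markers used for each of these cell types were above 0 in all 6 libraries, and their part in the results was not tested. In bulk muscle, fewer cells of a type and less RNA per cell cannot be told apart.

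Of the 73 members, 41 averaged 0.5 FPKM or more across the libraries and entered the test, 12 in the Fbxl, 21 in the Fbxo and 8 in the Fbxw branch. Each of the 41 was above 0 in all 6 libraries. The family spanned a wide range of levels, with 7 members at a mean of 20 FPKM or more, 14 between 5 and 20 FPKM and 20 between 0.5 and 5 FPKM. The most abundant was *Fbxo9*, which targets regulators of the mTOR complexes. In the order of replicates 1, 7 and 8, kept for the values of every gene, it measured 36.9, 35.4 and 36.8 FPKM in WT muscle against 45.1, 25.7 and 35.1 FPKM in KO muscle, so the KO libraries spread on both sides of WT. It was followed in mean level by *Fbxw5*, by *Fbxo6*, a receptor for glycoproteins, and by *Fbxw2*, and the level of *Fbxo6* in WT muscle (27.3 ± 5.89 FPKM, SD, n = 3) differed from that of *Fbxw2* (30.1 ± 0.779 FPKM, SD, n = 3) by less than its own spread.

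**Figure D1:**
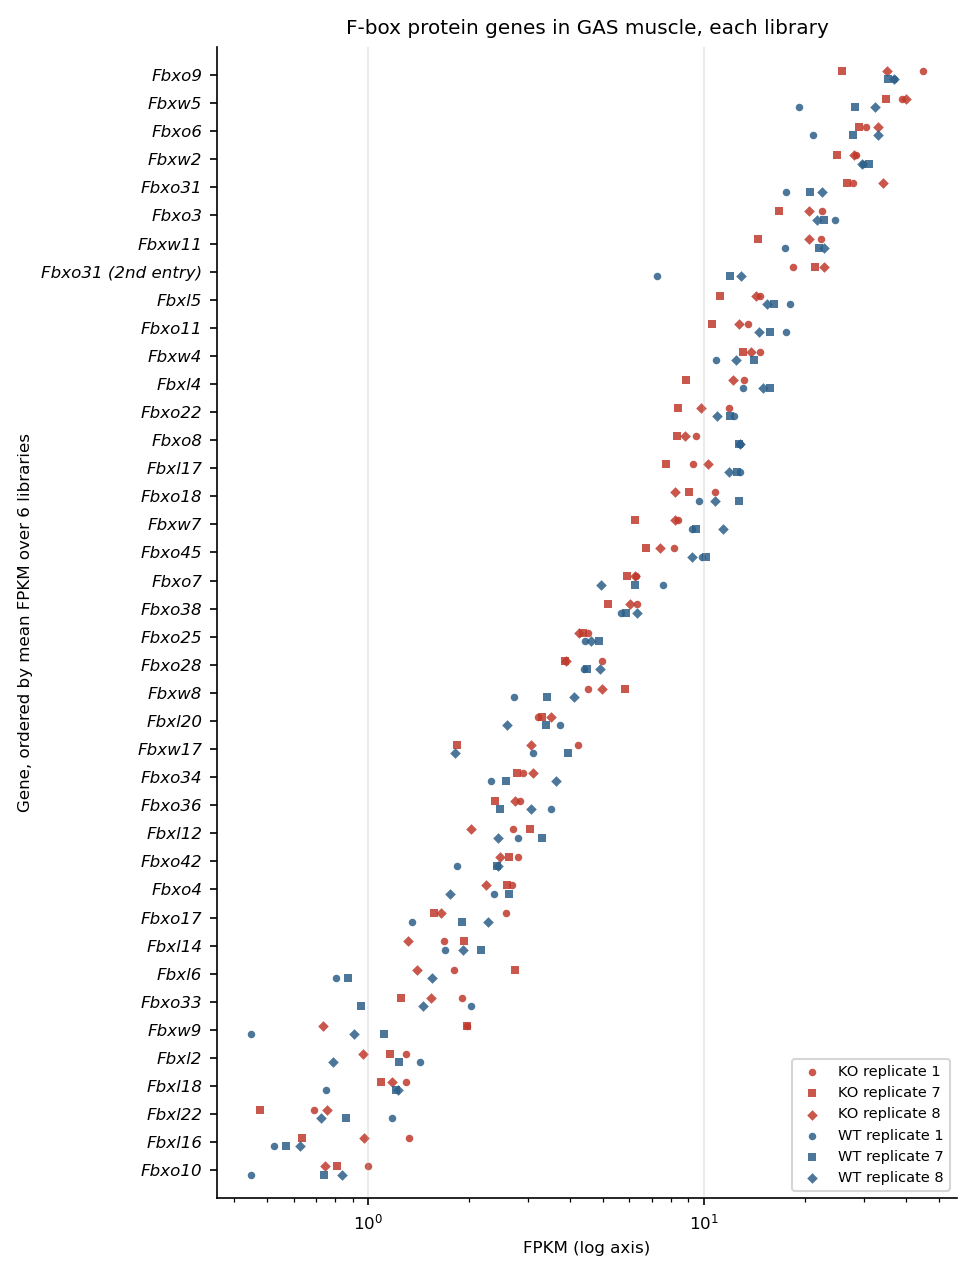
FPKM (log axis) of 40 of the 41 tested F-box protein genes, ordered from the lowest mean at the bottom to the highest at the top, with each library as a point (KO in red, WT in blue, marker shapes for replicates 1, 7 and 8). *Fbxo9* is at the top with 25.7 to 45.1 FPKM, and the red and blue points of most genes overlap.

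The other 32 members were below 0.5 FPKM. Of these, 10 were above 0 in all 6 libraries, another 10 in some libraries, and 12 were listed at 0 in each library. The 12 all belong to the Fbxw branch. Of them, 11 form a cluster on chromosome 9, between 109139447 and 109746089 of GRCm38, a mouse group of closely related copies (*Fbxw13*, *Fbxw14*, *Fbxw15*, *Fbxw16*, *Fbxw18*, *Fbxw19*, *Fbxw20*, *Fbxw21*, *Fbxw22*, *Fbxw24* and *Fbxw26*), and the entry called *Fbxw28* (ENSMUSG00000079284) was not found in GENCODE vM21. That annotation gives the name *Fbxw28* to the entry called *Fbxw14* in the table. Copies of this kind can lose fragments in counting, so a listed 0 is not a measured absence.

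Among all 12334 genes tested with limma and Benjamini-Hochberg adjustment, 40 genes or 0.324% had an adjusted p under 0.05. None of the 40 was a member (0 of 41), and the lowest adjusted p of a member was 0.0700, that of *Fbxo8*. When limma weighted the libraries by their spread (array weights), 11 members or 26.8% passed, beside 25.5% of all genes. At an unadjusted p under 0.05, 5 members (12.2%) were higher in KO muscle against 15.3% of all tested genes, and 5 (12.2%) were lower against 10.9%. The 5 higher were both entries of *Fbxo31*, *Fbxw5*, *Fbxw8* and *Fbxl6*, and the 5 lower were *Fbxo8*, *Fbxl17*, *Fbxo45*, *Fbxo11* and *Fbxw7*. The KO libraries all exceeded the WT libraries in 6 members (14.6%, against 18.3% of all genes) and below them in 7 (17.1%, against 16.2%). These shares lay near those of all genes. Their log2 fold changes had a median of -0.03, beside 0.01 over all tested genes, and a smaller spread, with an SD of 0.375 against 0.692. In signs, 19 members were above 0 and 22 below.

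The counts rested on few libraries. Without KO replicate 1 they were 3 higher and 8 lower, without KO replicate 7 the 5 lower became 3, and without WT replicate 7 they were 3 higher and 3 lower. The shares of all genes with a library left out are not given here, so these shifts cannot be called particular to the members. By branch the counts were small. In the Fbxw branch 2 of 8 members were higher and 1 lower at an unadjusted p under 0.05, in the Fbxo branch 2 and 3 of 21, and in the Fbxl branch 1 and 1 of 12. The shares of all tested genes were 15.3% higher and 10.9% lower. After the GC correction the branches had 0 higher each and 0, 1 and 1 lower in the same order, beside 5.37% and 5.43% of all genes. The 15 tested members outside the rule for named genes had log2 fold changes from -0.24 to 0.32. In 14 of them the genotypes overlapped, *Fbxo42* being the exception. That rule had already taken out the largest changes, so the narrow range and the overlap were partly set by it. Among all tested genes, 18.3% lay above WT in each KO library and 16.2% below.

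**Figure D2:**
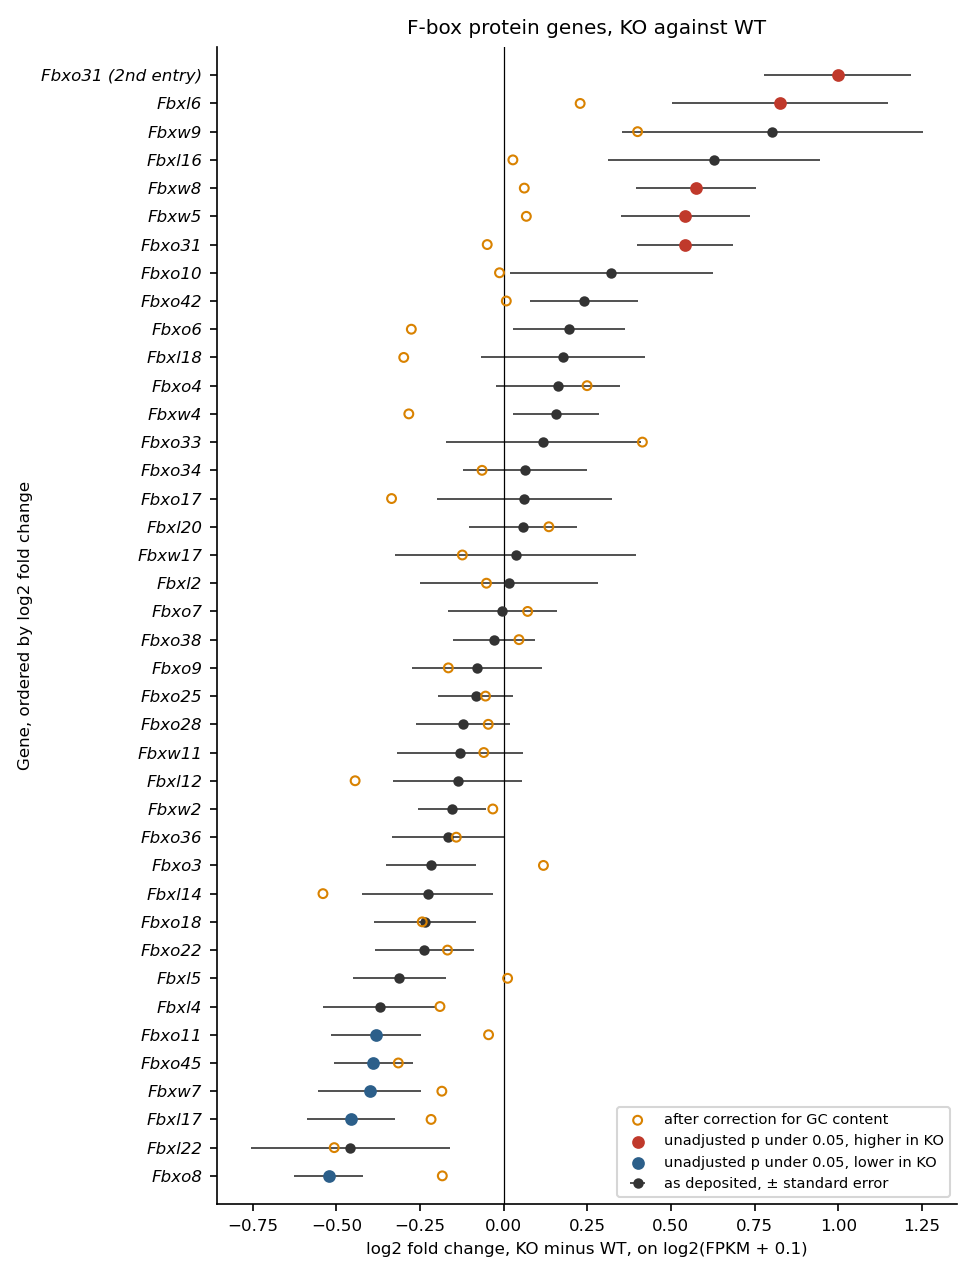
Log2 fold change (KO minus WT, on log2(FPKM + 0.1)) of 40 of the 41 tested members with its standard error as a bar, and after correction for GC content as an open circle where GC content was known. Red and blue points mark the 5 members each that were higher or lower at an unadjusted p under 0.05. Where drawn, the open circles of these marked members lie nearer to 0 than their points. Those of many other members lie farther from 0, as in *Fbxl14* (-0.23 to -0.54).

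*Fbxo31*, a receptor for cyclin D1 after DNA damage, had the smallest p of the members that were higher in KO muscle. The table holds 2 entries of this symbol. The first (ENSMUSG00000052934, chromosome 8, 121549440 to 121578806, minus strand) measured 17.6, 20.7 and 22.5 FPKM in WT and 27.8, 26.8 and 34.1 FPKM in KO muscle. Each KO library exceeded each WT library, and the log2 fold change was 0.54 (standard error 0.14, limma unadjusted p = 0.00591, adjusted p = 0.0892), or -0.05 after the GC correction. The second entry (ENSMUSG00000031811) was not in the annotation used here, may share fragments with the first and is uncertain. It was at 7.28, 11.99 and 12.9 FPKM in WT and at 18.5, 21.5 and 22.9 FPKM in KO muscle, again with no overlap (log2 fold change 1.00, standard error 0.22, limma adjusted p = 0.0750).

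*Fbxw8* pairs with the cullin CUL7 instead of CUL1 and is known for the turnover of the insulin receptor substrate IRS1. It was at 2.73, 3.41 and 4.12 FPKM in WT and at 4.51, 5.81 and 4.99 FPKM in KO muscle, so the genotypes did not overlap. The log2 fold change was 0.58 (standard error 0.18, limma adjusted p = 0.113), but 1845 of its exonic bases overlap the antisense gene *Gm9754*, and whether counting used strand is not given in the sources used here. Its partner *Cul7* was also higher, at 0.864, 0.452 and 0.591 FPKM in WT and 1.08, 1.64 and 0.898 FPKM in KO muscle (log2 fold change 0.83, standard error 0.33, limma adjusted p = 0.167). After the GC correction *Fbxw8* was at 0.06 and *Cul7* at 0.29 (standard error 0.34). *Fbxw5*, linked to the control of centrosome proteins, was at 19.2, 28.2 and 32.3 FPKM in WT and 38.9, 34.8 and 40.0 FPKM in KO muscle (log2 fold change 0.54, standard error 0.19, limma adjusted p = 0.143). WT replicate 1 was the lowest of the 6 libraries in *Fbxo31*, *Fbxw5* and *Fbxw8*.

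*Fbxl6* was at 0.805, 0.874 and 1.55 FPKM in WT and 1.80, 2.74 and 1.39 FPKM in KO muscle, where KO replicate 8 lay below WT replicate 8 (log2 fold change 0.83, standard error 0.32, limma adjusted p = 0.165). *Fbxl16* and *Fbxw9* completed the 6 members with the largest positive values, at log2 fold changes of 0.63 and 0.80, with adjusted p = 0.245 and 0.291 in limma. *Fbxw9* overlapped between the genotypes. *Fbxl16* did not, but its lowest KO value (0.637 FPKM, replicate 7) lay just above its highest WT value (0.628 FPKM, replicate 8). After the GC correction *Fbxl16* was at 0.03 and *Fbxw9* at 0.40.

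*Fbxo8*, which carries a Sec7 domain and acts on the GTPase ARF6, had the smallest p of the family. Its gene lies on chromosome 8 (56551090 to 56593939, plus strand). It measured 12.8, 12.7 and 12.8 FPKM in the WT against 9.48, 8.34 and 8.79 FPKM in the KO libraries. The 3 WT libraries were nearly equal, with an SD of 0.0765 FPKM around a mean of 12.8, and all KO libraries were below them. The log2 fold change was -0.52 (standard error 0.10, limma unadjusted p = 0.00120, adjusted p = 0.0700) and stayed between -0.57 and -0.48 when any library was left out, and it was -0.18 after the GC correction.

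*Fbxl17*, which removes wrongly paired BTB-domain dimers (chromosome 17, 63057452 to 63500017, minus strand), measured 12.8, 12.5 and 11.9 FPKM in WT and at 9.26, 7.69 and 10.3 FPKM in KO muscle. *Fbxo45*, a partner of the synaptic ligase MYCBP2, was at 9.90, 10.2 and 9.20 FPKM in WT and at 8.16, 6.73 and 7.41 FPKM in KO muscle. Neither overlapped between the genotypes. Their log2 fold changes were -0.46 (standard error 0.13, limma adjusted p = 0.101) and -0.39 (standard error 0.12, limma adjusted p = 0.107).

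*Fbxo11*, which targets the repressor BCL6, and *Fbxw7*, which targets cyclin E, MYC and NOTCH, were also below WT in each KO library. *Fbxo11* was at 17.6, 15.7 and 14.7 FPKM in WT and 13.5, 10.6 and 12.7 FPKM in KO muscle (log2 fold change -0.38, standard error 0.13, limma adjusted p = 0.139). *Fbxw7* was at 9.24, 9.49 and 11.4 FPKM in WT and 8.40, 6.26 and 8.2005 FPKM in KO muscle (log2 fold change -0.40, standard error 0.16, limma adjusted p = 0.161). KO replicate 7 was the lowest library in both, as it was in *Fbxo8*, *Fbxl17* and *Fbxo45*.

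**Figure D3:**
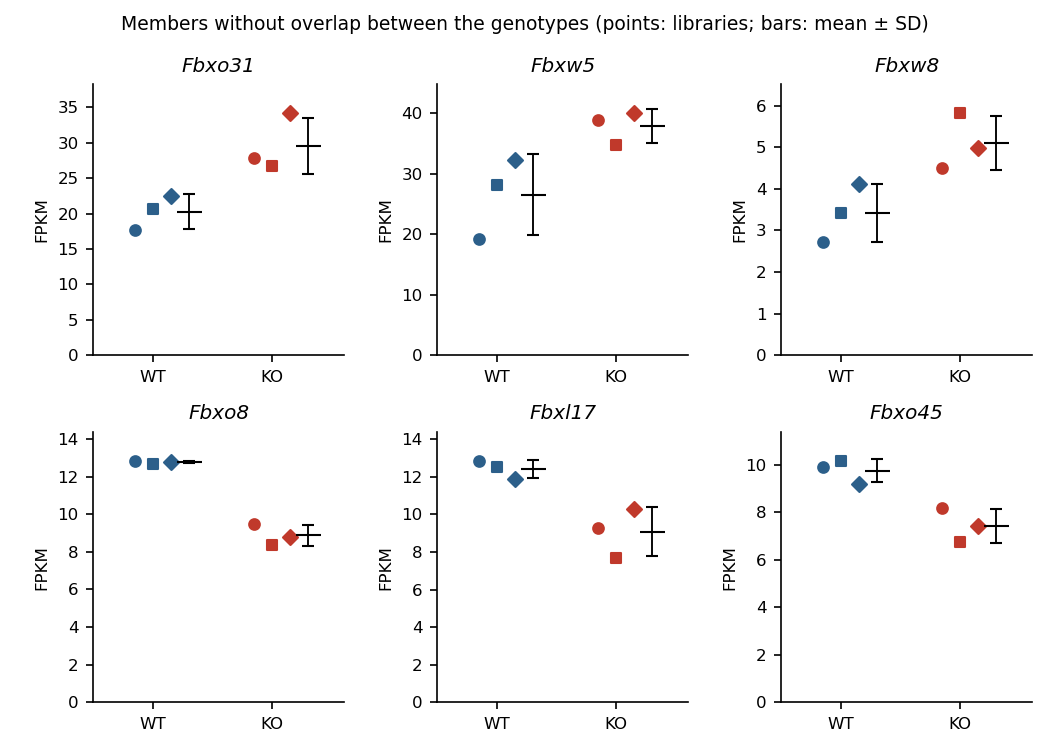
FPKM in each library (points) with the mean ± SD of each genotype (black bars) for 6 members whose genotypes did not overlap, *Fbxo31* (first entry), *Fbxw5* and *Fbxw8* in the upper row and *Fbxo8*, *Fbxl17* and *Fbxo45* in the lower row, each axis starting at 0. The KO libraries sit above WT in the upper row (26.8 to 34.1 FPKM against 17.6 to 22.5 in *Fbxo31*) and below WT in the lower row (8.34 to 9.48 FPKM against 12.7 to 12.8 in *Fbxo8*).

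KO replicate 7 had the lowest value of the 6 libraries in 17 of the 41 tested members (41.5%, against 26.5% of all tested genes) and WT replicate 1 in 14 (34.1%, against 28.7%). KO replicate 1 was lowest in 0 members, against 12.2% of all genes. KO replicate 1 and WT replicate 1 were each highest in 12 members (29.3%, against 15.1% and 21.9% of all genes). The median deviation of the members in KO replicate 7 was -0.17 on the log2 scale, beside -0.01 for all genes, with an SD of 0.102 between libraries of a genotype.

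The members with a known place in muscle did not pass the test. *Fbxo25*, the closest relative of *Fbxo32*, was at 4.43, 4.88 and 4.62 FPKM in WT and 4.52, 4.36 and 4.24 FPKM in KO muscle (log2 fold change -0.08, standard error 0.11). *Fbxl22*, whose protein sits at the Z-disc in cardiac muscle, was at 1.18, 0.862 and 0.724 FPKM in WT and 0.690, 0.478 and 0.755 FPKM in KO muscle (log2 fold change -0.46, standard error 0.30, limma adjusted p = 0.358). The genotypes overlapped in both genes, and 317 exonic bases of *Fbxl22* are shared with the opposite strand of *Herc1*.

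*Fbxw11*, a β-TrCP that acts on PER proteins and β-catenin, was at 17.5, 22.0 and 22.8 FPKM in WT and 22.3, 14.5 and 20.6 FPKM in KO muscle (log2 fold change -0.13, standard error 0.19), and the genotypes overlapped. Its relative *Btrc* had a log2 fold change of 0.07. *Fbxl21*, which binds cryptochromes, did not exceed 0.171 FPKM in any library (exact permutation test, two-sided, p = 0.4). The time of day at which muscle was taken is not given in the sources used here.

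*Fbxl5*, the iron-sensing receptor for IRP2, was below WT in each KO library, at 14.7, 11.1 and 14.3 FPKM against 18.01, 16.1 and 15.5 FPKM (log2 fold change -0.31, standard error 0.14, limma adjusted p = 0.206). *Fbxl4*, a mitochondrial protein whose loss depletes mitochondrial DNA, was at 13.1, 15.8 and 15.02 FPKM in WT and 13.2, 8.88 and 12.2 FPKM in KO muscle (log2 fold change -0.37, standard error 0.17, limma adjusted p = 0.209). *Fbxo7*, a partner of Parkin, had means of 6.24 FPKM in WT and 6.14 FPKM in KO muscle. The genotypes overlapped for *Fbxl4* and *Fbxo7*.

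For glycoprotein receptors the values were small or low. The log2 fold change was 0.20 for *Fbxo6* (standard error 0.17) and 0.06 for *Fbxo17* (standard error 0.26). *Fbxo44*, *Fbxo27* and *Fbxo2* were under the filter, and exact permutation tests, two-sided, gave p = 0.5, 0.9 and 0.4, where 3 against 3 libraries cannot go below 0.1. *Fbxo2* was listed at 0 in all KO libraries and at 0.0858 FPKM or less in WT.

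*Fbxl2*, which binds the p85 subunit of PI3K, and *Fbxo3*, which targets FBXL2, had log2 fold changes of 0.02 (standard error 0.27) and -0.22 (standard error 0.13). Of the cell cycle members, *Fbxo4*, another receptor for cyclin D1, had 0.16 (standard error 0.19), and *Fbxo5*, an inhibitor of the anaphase-promoting complex, was at 0.233 to 0.526 FPKM (exact permutation test, two-sided, p = 0.7). Among the 20 members under the filter and above 0 in some library, 2 lay above WT in each KO library and 1 below, beside 5.89% and 3.24% of the 8027 such genes in the table. *Fbxo46* was at 0.241 to 0.413 FPKM in WT and 0.457 to 0.551 FPKM in KO, *Fbxo24* at 0 to 0.0325 and 0.0831 to 0.233 FPKM, and *Fbxo47* at 0.131 to 0.274 and 0 to 0.0890 FPKM, each with p = 0.1 in an exact permutation test, two-sided. These 3 were named after their values were seen, and the levels of *Fbxo24* and *Fbxo47* correspond to a few fragments. *Fbxo24* also shares 112 exonic bases with *Pcolce* on the same strand and 250 with the antisense gene *Gm36266*, so its value is uncertain.

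The differences ran with GC content. Spearman's rho of the log2 fold change and the GC content of the transcripts was 0.72 over 40 members and 0.70 over 11985 genes. Both are descriptions across genes that share the same 6 libraries. Of the 11 members at 55% GC or more, 11 had a positive log2 fold change, with a median of 0.54 beside 0.47 for all genes of that class. Of the 7 under 45%, 6 were negative, with a median of -0.31 beside -0.30. The positive one was *Fbxo33*, at 0.12. Between 45% and 50% GC, 2 members were positive and 11 negative (median -0.13, all genes -0.11), and between 50% and 55% they were 4 and 5 (median -0.08, all genes 0.14).

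Within the transcript, rho over the 40 members was 0.42 for the GC content of the coding sequence and 0.58 for that of the rest. The length of the exons gave -0.19.

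**Figure D4:**
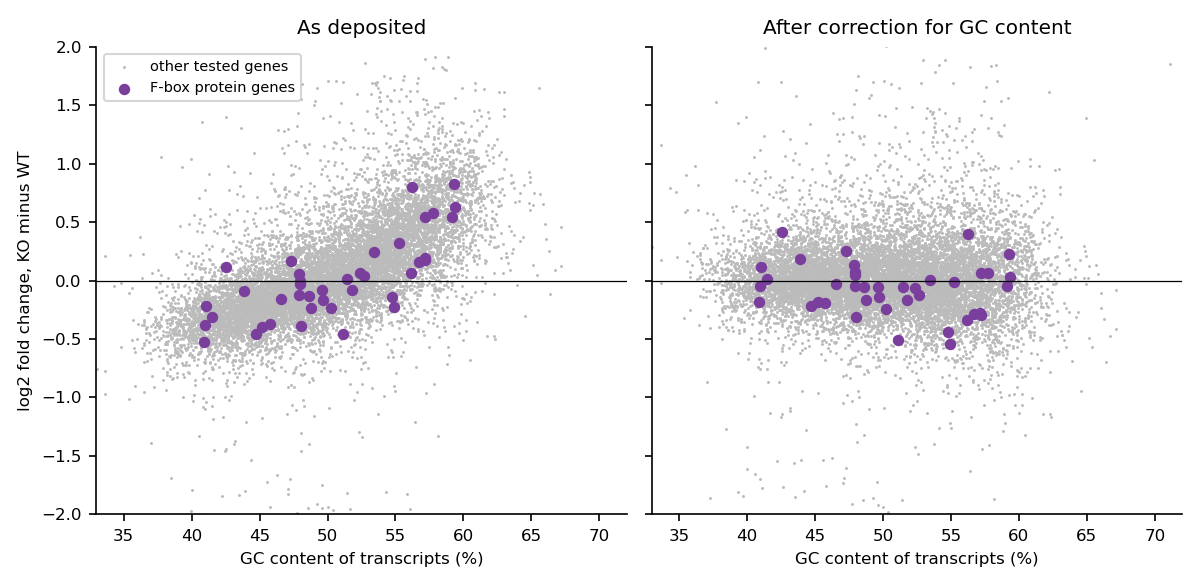
Log2 fold change (KO minus WT) against the GC content of transcripts (%) for the 40 members with known GC content (purple) and the other tested genes (grey), as deposited on the left and after correction for GC content on the right. The members climb with the grey cloud on the left (rho = 0.72) and spread around 0 on the right (rho = -0.15), with 14 above it and 26 below. Genes beyond a log2 fold change of 2 in size (146 on the left, 125 on the right) or beyond the GC axis (6) are not drawn.

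After each library was corrected for the trend on GC content, 0 of 40 members were higher at an unadjusted p under 0.05 (5.37% of all genes) and 2 were lower (5.43% of all genes). The 2 were *Fbxo45*, at a corrected log2 fold change of -0.31 (standard error 0.11, limma adjusted p = 0.384), and *Fbxl14*, a receptor for SNAIL named here after its values were seen, at -0.54 (standard error 0.18, limma adjusted p = 0.377). The median of the members was -0.05 and the SD of their log2 fold changes 0.216. In signs, 14 members were above 0 and 26 below, beside 5952 and 6033 of all genes. By class of GC content, from low to high, their corrected medians were 0.01, -0.05, -0.17 and -0.01. Beside the members already given, *Fbxw5* went from 0.54 to 0.07, *Fbxl6* from 0.83 to 0.23 and *Fbxo11* from -0.38 to -0.05. The second *Fbxo31* entry had no known GC content and was not corrected. The origin of the trend was not tested.

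The ligase core and its regulators were read from a list of 48 symbols, of which 44 were in the table and 39 were tested. The list holds the SCF subunits, the NEDD8 pathway that activates cullins, the COP9 signalosome that removes NEDD8, the E2 enzymes of SCF ligases and F-box proteins with other symbols. None of the 39 passed an adjusted p under 0.05 in limma (lowest 0.0847, *Ube2d3*). At an unadjusted p under 0.05, 4 (10.3%) were higher, *Cdc34*, *Cand2*, *Kdm2b* and *Cul7*, and 12 (30.8%) were lower, beside 15.3% and 10.9% of all tested genes. The 12 were the E2 enzyme genes *Ube2d1*, *Ube2d3*, *Ube2g1*, *Ube2r2* and *Ube2f*, the adaptor *Skp1a*, the NEDD8 genes *Uba3*, *Nae1*, *Dcun1d1* and *Senp8*, the signalosome protease *Cops5* and the RBX1 inhibitor *Glmn*. All KO libraries lay above WT in 7 genes of the list (17.9%) and below in 16 (41.0%), beside 18.3% and 16.2% of all tested genes, and the median log2 fold change was -0.15.

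*Skp1a*, which every SCF ligase shares, was at 177, 151 and 145 FPKM in WT and 131, 103 and 125 FPKM in KO muscle, with no overlap (log2 fold change -0.40, standard error 0.13, limma adjusted p = 0.130). *Cul1* had -0.27 (standard error 0.14, limma adjusted p = 0.258), *Rbx1* -0.22 (standard error 0.12) and *Nedd8* -0.08 (standard error 0.11). Of the exchange factors that swap F-box proteins on CUL1, *Cand1* had 0.30 (standard error 0.28) and *Cand2*, its muscle-rich relative, 0.42 (standard error 0.16, limma adjusted p = 0.151). *Skp2*, the receptor for the cell cycle inhibitor p27, was under the filter, at 0.214 to 0.311 FPKM in WT and 0.132 to 0.264 FPKM in KO muscle.

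The list was poorer in GC than the members, at a median of 46.9% against 49.97%. After the correction for GC content 1 gene was higher (*Kdm2b*, 0.49) and 1 lower (*Ube2m*, -0.31, named after its values were seen), with a median of -0.05, and *Skp1a* was at -0.10. The 12 lower genes also became 6, 7 and 7 without WT replicates 1, 7 and 8, and the 4 higher became 1, 2 and 1 without KO replicate 1, KO replicate 8 and WT replicate 7. For these settings, too, the shares of all genes are not given here.

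**Figure D5:**
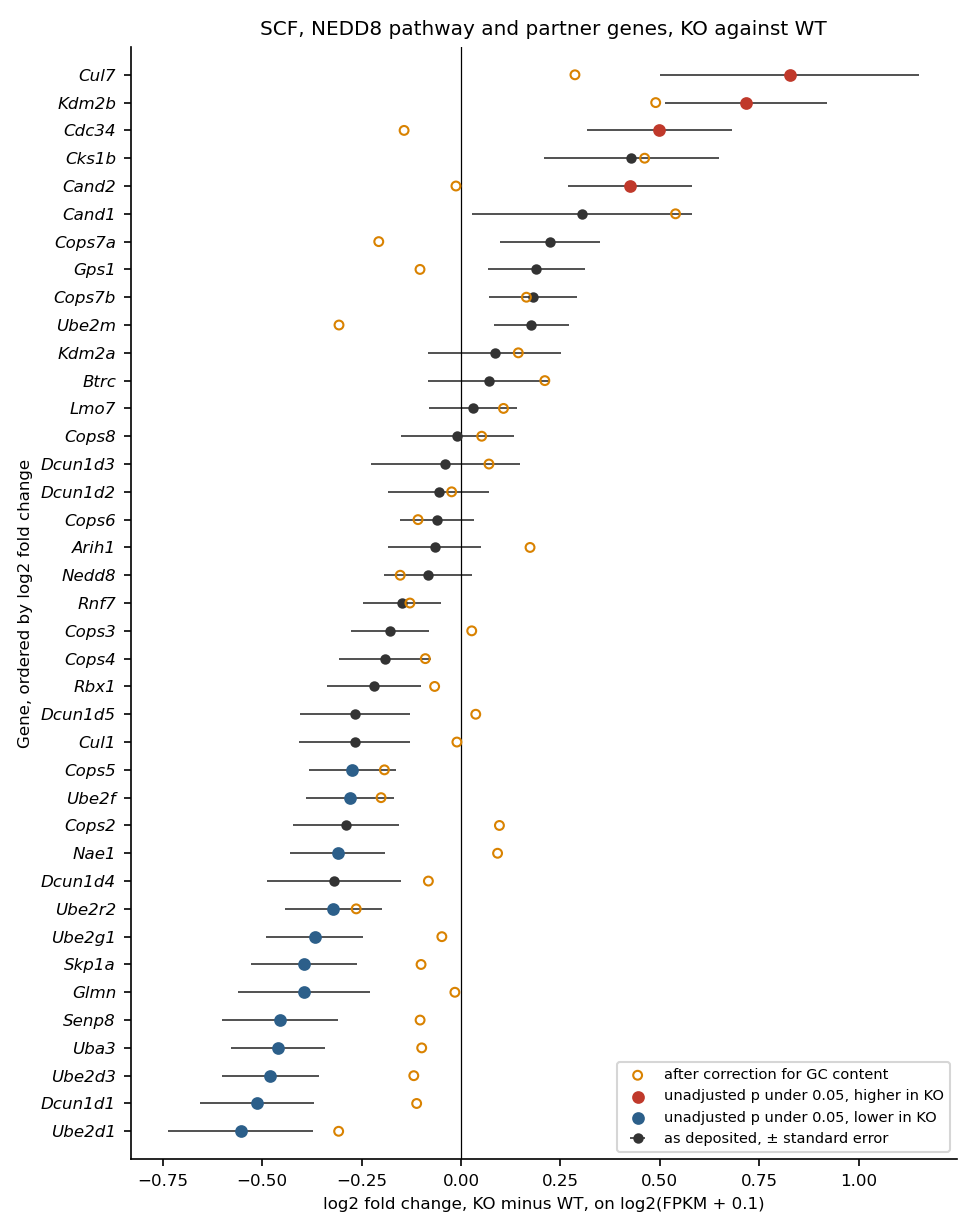
Log2 fold change (KO minus WT, on log2(FPKM + 0.1)) of the 39 tested genes of the SCF, NEDD8 pathway and partner list, with its standard error as a bar, and after correction for GC content as an open circle. Blue points mark the 12 genes lower in KO and red points the 4 higher at an unadjusted p under 0.05, and the open circles of most blue genes lie between their points and 0.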

How the data were processed

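RNA-seq of GAS muscle from 3 WT and 3 KO mice was analysed. Libraries were made with a stranded mRNA kit and sequenced as paired ends. The authors aligned reads with TopHat on GRCm38, quantified FPKM with Cufflinks and deposited FPKM for 37979 entries in 6 libraries without counts. Tool versions and the annotation release are not given in the sources used here. Groups came from the labels.

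The 12334 genes averaging 0.5 FPKM or more entered limma 3.58.1 (R 4.3.3) as log2(FPKM + 0.1) values, with a variance trend and Benjamini-Hochberg adjustment over all of them, called at an adjusted p under 0.05. P-values measure the spread between mice. Genes under that minimum had exact permutation tests. Coordinates, overlaps and GC content came from GENCODE vM21 (71 of 73 members found). The GC correction subtracted a loess curve of span 0.3 from each library's deviation. Depth was inferred from whole-fragment steps of low FPKM (90.0% to 95.1% of values whole within 0.15). The script was tested on simulated data.

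Named were the 5 most abundant tested members, the 6 largest positive and 6 largest negative log2 fold changes, any called member, members with set known roles and 9 genes of the ligase list. The members, lists and rules were chosen with earlier results of these data known. The result of 1 member is not reported here, although counts and medians include it. Alternatives covered pseudocount, filter, scaling, zeros, variance trend, array weights, replicate block, GC content, length, shared symbols and leaving out each library. Figures used matplotlib 3.10.9.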

Additional observations from a re-analysis of the deposited data

How the results depend on the processing

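Over 21 alternatives the median log2 fold change of the tested members stayed between -0.12 and 0.05. With 3 libraries per genotype and FPKM without counts, small differences of low members could not be resolved. The number of called members was 0 in each alternative except limma's array weights, which gave 4 higher and 7 lower (26.8% of those tested) while calling 3147 genes in all (25.5%). Those weights called 13 of the ligase list and gave 1863 higher and 1284 lower genes in all. They also put 11 members lower at an unadjusted p under 0.05 and 9 ligase genes higher. The share of all genes at an unadjusted p under these weights is not given here, so these counts have no baseline. The causes of the shifts given here were not tested.

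Over all genes, 31 were called higher and 9 lower. The higher became 7 with a pseudocount of 1, 13 with a minimum of 0.1 FPKM, 9 with no minimum, 20 with median scaling, 11 with quantile normalization, 1 without genes listed at 0, 12 without the variance trend, 6 with the GC correction and 9 with the length correction. The lower became 4 with a pseudocount of 1 and 0 without genes listed at 0. With each library left out, they were 6 to 19 and 5 to 19.

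Of members at an unadjusted p under 0.05, the GC correction left 0 higher and 2 lower, the length correction 2 higher, and leaving out shared symbols 3 higher. That last setting took both *Fbxo31* entries out of the test, leaving 39 of 41 members. Both had been among the 5 higher, so the fall to 3 was fixed in advance. The GC and length corrections could not include the second *Fbxo31* entry. With each library left out, 3 to 5 members were higher and 3 to 8 lower. Of the ligase list, the GC correction left 1 higher and 1 lower, the length correction gave 21 lower and no variance trend 7 lower. With each library left out they were 1 to 4 higher and 6 to 12 lower. Apart from the GC correction, shares of all genes at an unadjusted p under these alternatives are not given here.

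Same-numbered KO and WT libraries deviated with correlations of -0.03, -0.08 and 0.03, beside -0.07 to 0.09 for differently numbered ones. No strong deviation shared by number was seen, but with 3 libraries per genotype these values cannot exclude a pairing. With the replicate block, 6 genes were called higher and 7 lower, 0 members were called, 4 members were higher and 5 lower at an unadjusted p under 0.05, and 2 ligase genes were higher and 8 lower. With the block and the GC correction together, 5 genes were called higher, 0 members were higher and 3 lower, and 2 ligase genes were higher and 1 lower. Shares of all genes at an unadjusted p are not given here for either setting.

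Of 685 log2 fold changes of named genes under the alternatives, 37 changed sign, in 13 of 33 genes. The GC correction, with or without the block, gave -0.28 for *Fbxo6*, -0.049 for *Fbxo31*, 0.072 for *Fbxo7*, 0.12 for *Fbxo3*, -0.34 for *Fbxo17*, -0.051 for *Fbxl2*, 0.012 for *Fbxl5* and -0.013 for *Cand2*. Array weights gave 0.011 for *Fbxo7*, -0.073 for *Fbxo4*, -0.074 for *Fbxo17*, -0.16 for *Fbxl2* and 0.028 for *Nedd8*. Quantile normalization gave -0.028 for *Fbxo17* and -0.10 for *Fbxl2*, the length correction -0.076 and -0.080, and median scaling -0.033 for *Fbxl2*. With each library left out, the values ranged from -0.27 to 0.13 for *Fbxo9*, -0.16 to 0.14 for *Fbxo7*, -0.25 to 0.056 for *Fbxw11*, -0.15 to 0.22 for *Fbxo17*, -0.22 to 0.18 for *Fbxl2* and -0.0046 to 0.20 for *Btrc*.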
